A study of Xenopus tropicalis with 2 samples.

Results

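The ventx genes of Xenopus tropicalis are a family of homeobox genes, and their transcripts were followed here across the nuclei of early gastrulae. Every gene whose symbol begins with ventx was taken, which gave 6 of the 21821 genes in the table: ventx1.1, ventx1.2, ventx2.1, ventx2.2, ventx3.1 and ventx3.2. Nuclei came from wild-type embryos at stage 10.5, the early gastrula, with no treatment, and were profiled by single-nucleus RNA sequencing as 1 pool read in 2 sublibraries. Whole embryos were pooled, so no value belongs to 1 embryo and the sublibraries are technical repeats. With 1 group and 1 pool there was no replicate of the biology. Differences between kinds of nuclei are therefore given without a test, with 95% intervals that cover counting error only and with the value in each sublibrary.

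Ventx proteins are homeodomain transcription factors that act mainly as repressors. Work in Xenopus laevis placed them downstream of BMP signalling: ligands such as Bmp4 and Bmp7 activate Smad1, which switches on ventx1 and ventx2 genes on the ventral side of the gastrula, and the proteins keep organizer genes such as gsc (goosecoid) and chrd (chordin) from being expressed there. Chordin is itself a secreted BMP inhibitor made by the organizer, the dorsal signalling centre. ventx2.1 is also known as vox or xom, ventx1.2 as vent1 and ventx3.2 as vex1.

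The sublibraries held 44341256 and 44026454 unique molecular identifiers (UMIs, each standing for 1 captured transcript), of which 58.1% and 58.6% were in the 8474 nuclei with at least 1500 genes. Removing 784 probable doublets left 7690 nuclei, 3830 and 3860 per sublibrary, with median depths of 4503.5 and 4517.5 UMIs. Nuclei were clustered without the ventx and BMP pathway genes and named from marker lists, as "-like" classes. At Leiden resolution 1 (14 clusters) the class named dorsal mesoderm-like carried less chrd.1 than the class named ventral mesoderm-like, 330 against 1461 UMIs per 1000000 UMIs of the class (CPM), so this grouping mixed dorsal and ventral nuclei. At resolution 2 (24 clusters) the order was 2362 CPM in dorsal and 175 CPM in ventral mesoderm-like nuclei. Values from both groupings are given, and a cluster is called by its leading genes.

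All 6 genes lay within 61930 bases of chromosome 7 in the RefSeq annotation of UCB_Xtro_10.0, the build of the gene table. Along the chromosome ventx3.2 (26843905 to 26846531) came first, followed by ventx1.2 (26856592 to 26861253), ventx3.1 (26863897 to 26866536), ventx2.2 (26877234 to 26879212), ventx1.1 (26891017 to 26893226) and ventx2.1 (26903909 to 26905834). Neighbouring genes were separated by 2643 to 11804 bases, and members of a numbered pair were never adjacent. The sequences of the paired genes were not compared here. If they are alike, reads could have been divided between them, so the split within a pair is less certain than the sum of the pair.

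Over all nuclei the family gave 15975 UMIs, or 377.5 CPM. ventx1.2 was the most abundant transcript with 6892 UMIs and 162.9 CPM (159.0 to 166.8), and ventx1.1 followed with 3881 UMIs and 91.7 CPM (88.8 to 94.6). The second pair was lower, at 52.6 CPM (50.4 to 54.8) for ventx2.2 and 44.5 CPM (42.5 to 46.6) for ventx2.1. ventx3.2 reached 24.2 CPM (22.7 to 25.7), and ventx3.1 was nearly undetected, with 71 UMIs and 1.68 CPM (1.31 to 2.12).

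The sublibraries gave 165.5 and 160.4 CPM for ventx1.2, 92.8 and 90.7 for ventx1.1, 53.1 and 52.1 for ventx2.2, 46.0 and 43.1 for ventx2.1, 24.4 and 23.95 for ventx3.2, and 1.71 and 1.65 for ventx3.1. The order of the 6 genes was thus the same in each sublibrary. Per kilobase of gene span, introns included, levels were 41.5 CPM for ventx1.1, 34.9 for ventx1.2, 26.6 for ventx2.2, 23.1 for ventx2.1, 9.20 for ventx3.2 and 0.636 for ventx3.1. On that scale ventx1.1 stood above ventx1.2, the reverse of the order in CPM, whereas the ventx1, ventx2 and ventx3 subgroups kept their order.

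Across the 24 clusters the summed ventx level ran from 82.2 to 921 CPM, an 11.2-fold range with a median of 288 CPM. The 3 highest clusters were the 3 that formed the ventral mesoderm-like class. The cluster led by vps36, ventx3.2 and cdx4 had 921 CPM (865 to 978), the cluster led by crybg2 and cdx2 had 885 (842 to 929), and the cluster led by LOC105948415, ttn and wnt8a had 835 (797 to 875). Neighbours in this order overlapped in their intervals, so their ranking is not resolved. ventx3.2 was a leading gene of the first cluster although it took no part in the clustering.

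**Figure D1:**
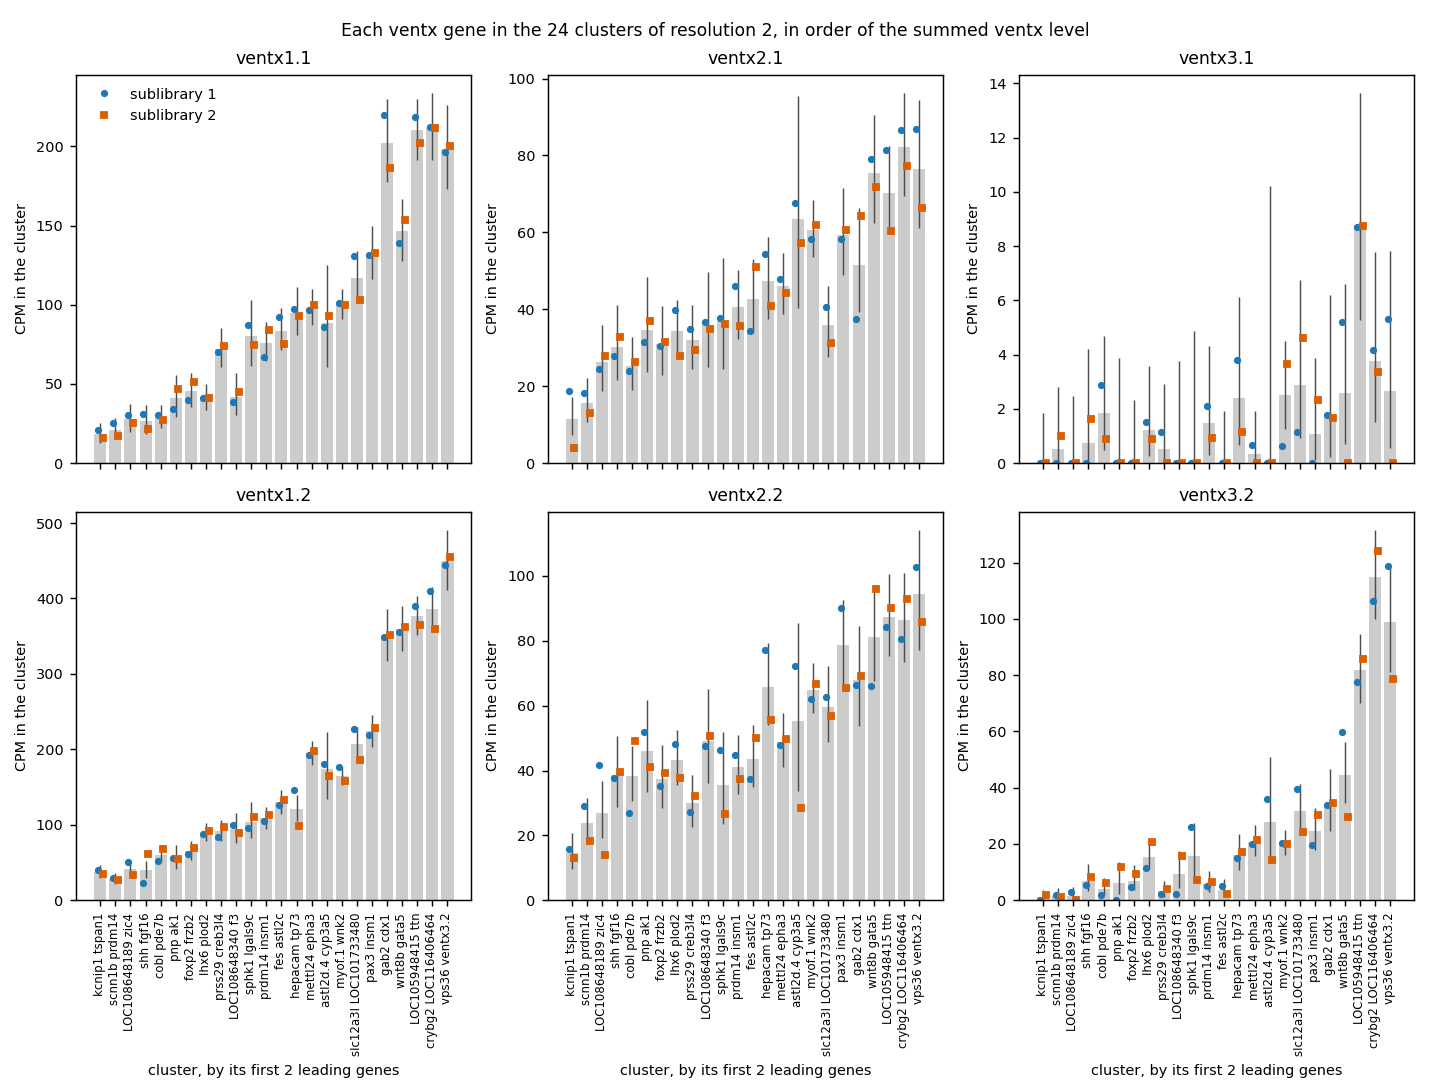
CPM of each ventx gene (y axis, linear, one scale per panel) in the 24 clusters of resolution 2 (x axis, ordered by summed ventx level); bars are both sublibraries together with 95% Poisson intervals, and circles and squares are the 2 sublibraries. ventx1.1, ventx1.2 and ventx3.2 are concentrated in the clusters on the right, ventx2.1 and ventx2.2 rise more gradually, and ventx3.1 reaches 8.74 CPM at most.

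After a gap came a pair of clusters from other germ layers with nearly equal levels. The ventral endoderm-like cluster led by wnt8b and gata5 had 709 CPM (668 to 752), and the outer-layer non-neural ectoderm-like cluster led by gab2 and cdx1 had 708 (660 to 758). The inner non-neural ectoderm-like cluster led by pax3 was next, apart from its neighbours on each side, with 519.5 CPM (487 to 553). Its leading gene pax3 was on the neural marker list, and its mean marker scores were 1.04 for non-neural and 0.42 for neural ectoderm. The 5 highest clusters thus included mesoderm-like, endoderm-like and ectoderm-like nuclei, with the 3 clusters named ventral mesoderm-like above the others. Of these 3, the clusters led by crybg2 and vps36 each raised 4 of 8 ventral mesoderm markers and also carried ectoderm genes. In them tp63 was at 486 and 192 CPM and tfap2a at 416 and 525, beside 69.0 and 223 in the cluster led by LOC105948415. The pan-mesodermal gene tbxt was at 1163 and 1397 CPM, beside 1916. The tp63 level in the cluster led by crybg2 was above the 458 CPM of the inner non-neural ectoderm-like cluster led by mettl24. The cluster led by vps36 had mean marker scores of 0.76 for ventral mesoderm and 0.67 for neural ectoderm.

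The lowest clusters also came from several layers. The dorsal mesoderm-like cluster led by shh, fgf16 and chrd.1 had 143 CPM (123 to 165), the inner neural ectoderm-like cluster led by LOC108648189 and zic4 had 123 (106 to 143), and the unnamed clusters led by scnn1b and kcnip1 had 90.8 (78.0 to 105) and 82.2 (70.1 to 95.7). Of the 23 neighbouring pairs in the whole order, the intervals of 5 did not overlap. For single genes this number was 2 for ventx1.1, 2 for ventx1.2, 1 for ventx3.2, and 0 for ventx2.1, ventx2.2 and ventx3.1, so most neighbours in those orders cannot be ranked.

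The sublibraries gave a like order of clusters for the abundant genes. Over the 24 clusters Pearson's r between sublibraries was 0.97 for ventx1.1, 0.95 for ventx1.2, 0.81 for ventx2.1, 0.73 for ventx2.2 and 0.78 for ventx3.2, and 0.42 for ventx3.1. These are descriptions of clusters that share the same pool and the same clustering. The sparse ventx3.1 gave 19 of its 71 UMIs in the cluster led by LOC105948415, where it reached 8.74 CPM (5.26 to 13.6).

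The mesoderm comparison asked how far ventx levels differed between the ventral and the dorsal side. At resolution 2 the family had 872 CPM in 1026 ventral mesoderm-like nuclei (896 and 847 in the sublibraries) and 196 CPM in 717 dorsal mesoderm-like nuclei (193 and 199.9). The levels of the classes did not overlap between sublibraries, and the ratio was 4.44-fold (4.11 to 4.81). The ventral class included the clusters led by crybg2 (369 nuclei) and vps36 (260 nuclei), which also carried ectoderm genes. The dorsal class was mixed as well. Of its nuclei, 463 were in the cluster led by lhx6, which raised 3 of 6 dorsal mesoderm markers and had 225 ventx CPM (207 to 245). That cluster had 472 CPM of chrd.1 and 148 of the ventral marker cdx4, beside 5851 and 9.81 in the cluster led by shh. The ventral over dorsal ratio was 7.82-fold (5.79 to 10.8) for ventx3.2, 5.77-fold (4.82 to 6.95) for ventx1.1 and 5.49-fold (4.83 to 6.25) for ventx1.2. It was smaller for the second pair, 2.31-fold (1.88 to 2.85) for ventx2.1 and 2.13-fold (1.77 to 2.57) for ventx2.2, whose intervals did not meet those of ventx1.1, ventx1.2 and ventx3.2.

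All 5 members with at least 50 UMIs in these classes were 2-fold or more higher on the ventral side at resolution 2, where 2.65% of the 7293 genes compared were. At resolution 1 they were 3 of 5 (ventx1.1 at 2.89-fold, ventx3.2 at 2.52 and ventx1.2 at 2.15), against 4.33% of 7382 genes, with the family at 2.11-fold (1.97 to 2.26). ventx2.1 at 1.54-fold (1.26 to 1.91) and ventx2.2 at 1.35-fold (1.13 to 1.63) stayed under that line. ventx3.1 had 29 UMIs in the ventral and 4 in the dorsal class at each resolution, too few for a count. Genes 2-fold or more lower on the ventral side made up 1.29% at resolution 1 and 2.48% at resolution 2, and no ventx gene was among them.

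**Figure D2:**
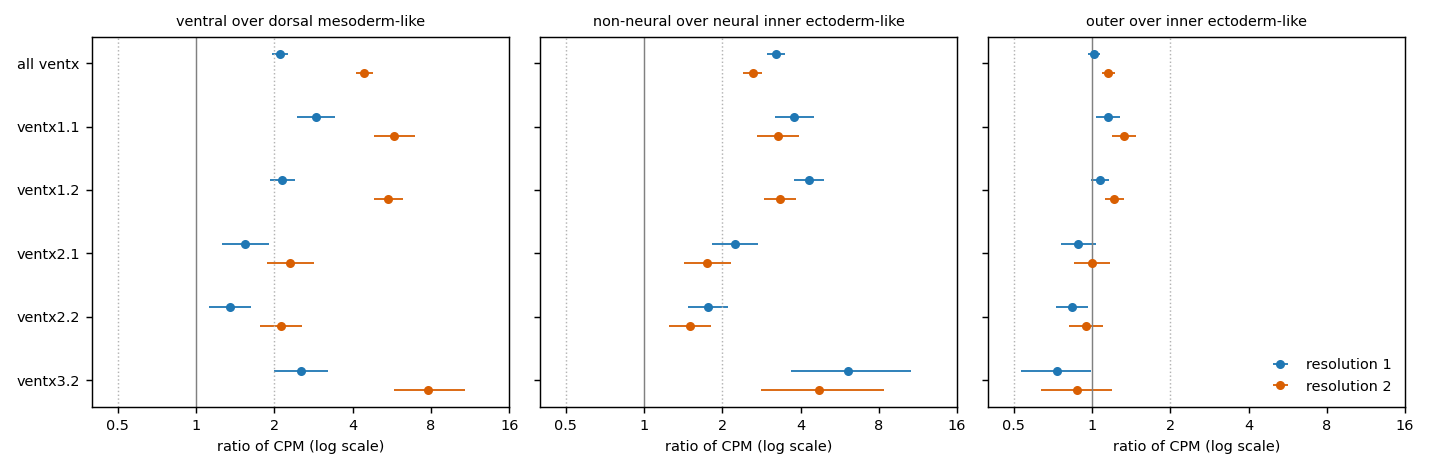
Ratio of CPM (x axis, log scale) between classes of nuclei for the ventx sum and 5 ventx genes, at resolution 1 (blue) and 2 (orange), with exact 95% intervals; dotted lines mark 2-fold. Mesoderm ratios are larger at resolution 2, the non-neural over neural ratios exceed 1 for each gene drawn, and the outer over inner ratios lie near 1.

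A split by marker transcripts, without clusters, gave a like result. It took nuclei with tbxt or tbxt.2 and set wnt8a, evx1 or cdx4 against gsc, not or shh. These genes were on the marker lists used for the clusters, so the split is not separate support. Of them, evx1 and cdx4 were also on the list of BMP targets. Nuclei gated on ventral mesoderm markers (1060) exceeded those gated on dorsal markers (563) by 3.92-fold (3.59 to 4.29) in summed ventx CPM, with 8.64-fold for ventx3.2, 4.59 for ventx1.2, 4.04 for ventx1.1, 2.37 for ventx2.2 and 2.32 for ventx2.1. After the data had been seen, the resolution 1 cluster led by LOC105948415 was also divided into 287 nuclei with a wnt8a but no chrd.1 UMI and 274 with chrd.1 but no wnt8a. wnt8a is a Wnt ligand of the ventral and lateral marginal zone. The former had 906 and the latter 159 ventx CPM, a 5.69-fold difference (4.94 to 6.57) inside 1 cluster. ventx3.2 differed there by 20.2-fold (9.56 to 51.1), from 149 against 7 UMIs, and ventx2.2 by 1.98-fold (1.44 to 2.73).

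The cluster led by shh, which encodes a ligand of the notochord and floor plate, had the most chrd.1 of the 24 (5851 CPM). Against it the cluster led by LOC105948415 had 12.0-fold (6.204 to 26.8) more ventx3.2, 9.42-fold (7.13 to 12.7) more ventx1.2 and 7.95-fold (5.63 to 11.6) more ventx1.1. The ventx1.2 value differed between sublibraries, at 17.5-fold and 6.005-fold, with 53 UMIs of it in the shh cluster. ventx2.1 and ventx2.2 were 2.33-fold (1.64 to 3.39) and 2.27-fold (1.66 to 3.15) higher. These single clusters were chosen after their levels were seen.

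In endoderm the class named ventral was also the higher one at resolution 2. The family had 575 CPM in 619 ventral endoderm-like nuclei (598 and 552 in the sublibraries) and 227 CPM in 341 dorsal endoderm-like nuclei (229 and 225), a ratio of 2.53-fold (2.28 to 2.81). The ratio was 3.51-fold (2.20 to 5.86) for ventx3.2, 3.27-fold (2.77 to 3.88) for ventx1.2 and 2.45-fold (1.97 to 3.06) for ventx1.1, so 3 of 5 members were past 2-fold, where 10.5% of 6314 genes were. ventx2.2 was at 1.72-fold (1.33 to 2.25) and ventx2.1 at 1.48-fold (1.12 to 1.97).

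At resolution 1 the endoderm ratio of the family was 1.02-fold (0.94 to 1.12). The ventral endoderm-like class was there the outer-layer cluster led by slc12a3l alone. It had 2591 CPM of chrd.1, beside 2599 in the dorsal endoderm-like class, so chrd.1 did not set the classes of that resolution apart. The dorsal endoderm-like cluster of that resolution held nuclei of opposite kinds: the 143 nuclei with wnt8a and no chrd.1 UMI had 964 ventx CPM and the 305 of the opposite kind 199, a 4.84-fold difference (4.23 to 5.54). The ventral endoderm-like class of resolution 2 was itself mixed. Of its 619 nuclei, 314 were in the outer-layer cluster led by slc12a3l. That cluster had 454 ventx CPM (423 to 487) together with 2632 CPM of chrd.1. Its mean marker scores were close, at 1.67 for ventral endoderm and 1.59 for dorsal mesoderm. The cluster led by wnt8b had 709 ventx CPM and 1313 of chrd.1. A ventral side of the endoderm was therefore not cleanly separated by these classes.

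In the inner layer of the ectoderm, ventx transcripts were more abundant in non-neural than in neural nuclei. At resolution 1 the family had 408 CPM in 1411 non-neural nuclei (411 and 405 in the sublibraries) and 127 CPM in 1308 neural nuclei (131 and 123), 3.22-fold (2.97 to 3.48). Of the non-neural nuclei, 837 were in the cluster led by pax3, a gene of the neural marker list. Its mean marker scores were 0.99 for non-neural and 0.24 for neural ectoderm. Between the classes ventx3.2 differed by 6.08-fold (3.69 to 10.6), ventx1.2 by 4.31-fold (3.77 to 4.94), ventx1.1 by 3.77-fold (3.18 to 4.49), ventx2.1 by 2.24-fold (1.83 to 2.75) and ventx2.2 by 1.76-fold (1.48 to 2.104). The order ventx3.2 or ventx1 genes above ventx2 genes was that of the mesoderm.

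Thus 4 of 5 members were past 2-fold there, against 2.57% of 8062 genes. At resolution 2 they were 3 of 5, against 3.08% of 7767 genes, with the family at 2.62-fold (2.41 to 2.85). Within the non-neural nuclei the level varied: the cluster led by pax3 had 519.5 CPM, that led by mettl24 had 409 and that led by prdm14 had 274. Within the neural nuclei the clusters led by pnp and ak1, by cobl, and by LOC108648189 had 183, 159 and 123 CPM. No named neural cluster of the inner layer reached the lowest named non-neural one, and the unnamed cluster led by scnn1b, whose highest marker score was non-neural, had 90.8. That cluster was in neither class at resolution 2. At resolution 1 scnn1b was a leading gene of a cluster in the neural class, with 813 nuclei and 114 ventx CPM. At resolution 0.5 the log2 ratio of the family between the named classes was -0.41, the opposite direction.

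Between the ectodermal layers the family had nearly equal levels at resolution 1, with a ratio of 1.02-fold outer over inner and an interval of 0.96 to 1.07 (log2 ratios of -0.03 and 0.07 in the sublibraries). The outer layer is the superficial epithelium and the inner layer the deep cells beneath it. The outer class had 279 CPM, and its clusters, led by f3 (294) and ugt3a2 (241), were named non-neural. The inner class pooled non-neural nuclei at 408 CPM with neural nuclei at 127. The outer over inner ratios therefore do not compare like regions, and the outer class lay below the inner non-neural one. ventx1.1 was at 1.15-fold (1.04 to 1.28), ventx1.2 at 1.08 (0.99 to 1.17), ventx2.1 at 0.89 (0.76 to 1.03), ventx2.2 at 0.84 (0.73 to 0.97) and ventx3.2 at 0.73 (0.53 to 0.99). None of the 5 was past 2-fold in either direction, where 9.41% of 9312 genes were higher and 7.56% lower in the outer layer by that measure. With 5 members this count lies near those shares and does not set the ventx genes apart. ventx3.2, at a log2 ratio of -0.41, was past 2-fold lower in 2 of 13 alternatives, with -1.06 from nuclei with at least 1000 genes and -1.22 with 4000 variable genes, and stood at 0.04 with at least 2000 genes. At resolution 2 the family ratio was 1.16-fold (1.096 to 1.22). The classes of that resolution left out 2 unnamed clusters with low levels. The outer class lacked the cluster led by kcnip1 (372 nuclei, 82.2 CPM) and the inner class that led by scnn1b (392 nuclei, 90.8 CPM).

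This near equality of the layers hid a wide range inside the outer layer. The cluster led by gab2 and cdx1 had 708 CPM, that led by fes 303, those led by LOC108648340 and prss29 230 and 229, and the unnamed outer cluster led by kcnip1 82.2. The cluster led by gab2 stood 3.09-fold (2.75 to 3.48) above that led by prss29 and 8.62-fold (7.28 to 10.2) above that led by kcnip1. For ventx2.1 the last ratio differed between the sublibraries, at 2.00-fold in one and 16.02-fold in the other. The clusters led by gab2 and kcnip1 were the highest and the lowest of the outer layer on these same levels. Their ratio therefore describes the range, and its interval does not allow for that choice.

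Set beside the ventral mesoderm-like cluster led by crybg2, the outer cluster led by gab2 had less ventx3.2 and ventx2.1, while the intervals of the other abundant members included 1. Its ratio was 0.96 (0.81 to 1.13) for ventx1.1 and 0.91 (0.80 to 1.03) for ventx1.2. It was 0.78 (0.59 to 1.03) for ventx2.2, 0.63 (0.46 to 0.85) for ventx2.1, with 0.43 and 0.83 in the sublibraries, and 0.30 (0.21 to 0.42) for ventx3.2. Of the 6 genes, ventx3.2 was thus the one with the largest shortfall in this outer cluster among those with enough UMIs to compare. The inner layer had a like shortfall. Ventral mesoderm-like nuclei of resolution 2 exceeded inner non-neural ones by 5.62-fold (4.59 to 6.92) for ventx3.2. The ratio was 2.24-fold for ventx1.2, 2.06 for ventx1.1, 1.62 for ventx2.2 and 1.58 for ventx2.1. The inner cluster led by pax3 had 24.6 CPM of ventx3.2 (18.0 to 32.8), beside 34.3 (24.5 to 46.7) in that led by gab2.

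The make-up of the ventx transcripts changed with their amount. The pair ventx1.1 and ventx1.2 gave 46.6% to 78.1% of ventx UMIs over the 24 clusters, and ventx2.1 and ventx2.2 gave 16.8% to 48.1%, with the lowest share of the second pair in the cluster led by gab2 and the highest in that led by shh. Across clusters the share of the second pair fell with the summed level (Pearson's r = -0.83, Spearman's rho = -0.86), and that of ventx3.2, from 1.09% to 13.0%, rose with it (r = 0.82, rho = 0.74). Share and level come from the same UMIs, so these correlations over 24 clusters are descriptions only. Within the first pair ventx1.2 held 55.8% to 71.0% in all clusters.

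**Figure D3:**
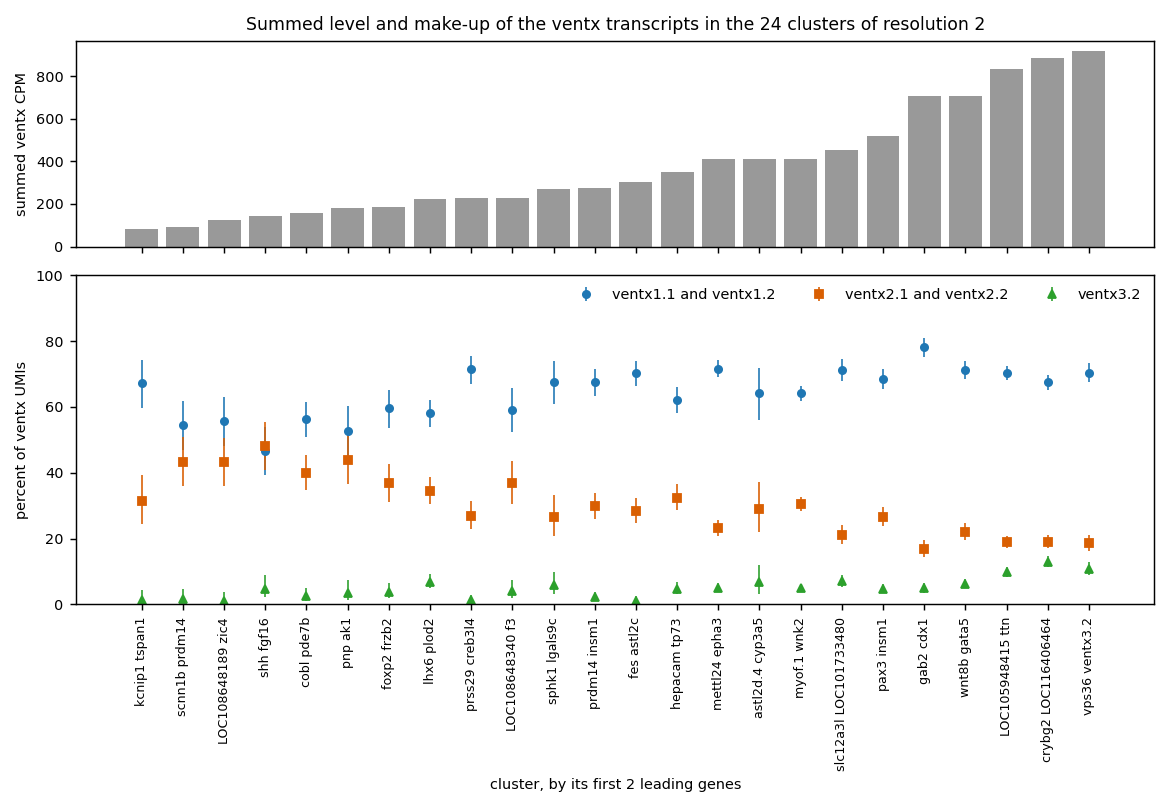
Summed ventx CPM (top, bars from 0) and percent of ventx UMIs from each subgroup (bottom, points with exact 95% binomial intervals) in the 24 clusters of resolution 2, ordered by summed level. From left to right the ventx2 share (squares) goes down, with 48.1% in the cluster led by shh and 16.8% in that led by gab2, and the ventx3.2 share (triangles) goes up to 13.0%.

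The share of nuclei with a ventx UMI was compared after each nucleus was thinned to 2500 UMIs, which left out no nucleus. At resolution 2 at least 1 ventx UMI was found in 81.2% of ventral mesoderm-like nuclei (78.7 to 83.5; 92.5% without thinning, median 4376 UMIs). The share was 56.2% in ventral endoderm-like, 54.8% in inner non-neural, 47.9% in outer ectoderm-like, 32.6% in dorsal endoderm-like, 28.7% in dorsal mesoderm-like and 26.6% in inner neural nuclei. ventx transcripts were therefore found in some nuclei of each class.

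The shh cluster, the dorsal nuclei in which BMP targets should be low, had 23.2% (18.2 to 28.9; 37.4% without thinning, median 4613.5 UMIs), and the kcnip1 cluster had 13.4% (10.1 to 17.3; 25.5% without thinning, median 4626). Barcodes with fewer than 1500 genes carried the family at 418 CPM, more than 17 of the 24 clusters did. Their make-up was not that of the shh cluster: ventx2.1 and ventx2.2 gave 26.7% (26.0 to 27.4) of ventx UMIs in these barcodes and 48.1% (40.8 to 55.5) in the shh cluster. The part of free RNA in the low ventx shares of dorsal and neural nuclei was not tested. For ventx3.2 the thinned share was 18.2% (15.9 to 20.7) in ventral and 2.51% (1.49 to 3.94) in dorsal mesoderm-like nuclei.

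**Figure D4:**
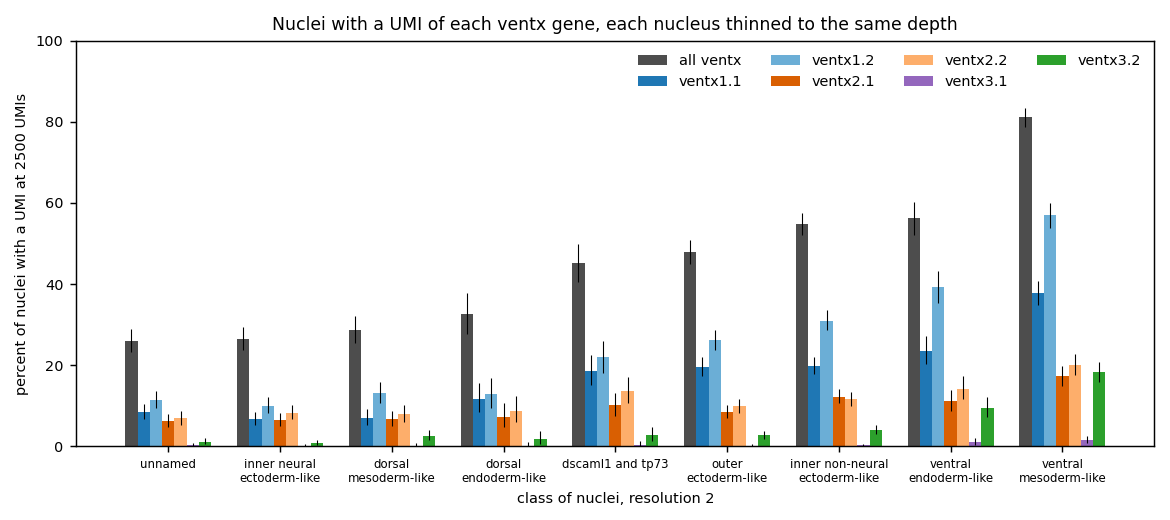
Percent of nuclei (y axis, from 0) with at least 1 UMI of any ventx gene or of each ventx gene after thinning to 2500 UMIs, by class of resolution 2, with exact 95% binomial intervals. The ventral mesoderm-like class is highest for all 6 genes, and ventx3.2 is found in 18.2% of its nuclei.

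ventx genes were found together in the same nuclei. ventx1.1 and ventx1.2 were both found in 644 of 7690 thinned nuclei, 8.37% where the product of their single shares was 4.66%, 1.80 times as many. The ratio was 2.38 for ventx1.2 with ventx3.2, 2.29 for ventx1.1 with ventx3.2 and 1.65 for ventx2.1 with ventx2.2. Within ventral mesoderm-like nuclei of resolution 2 the ratios of the 10 pairs without ventx3.1 ran from 1.03 to 1.35, and 46.6% of those nuclei had UMIs of 2 or more ventx genes, against 7.11% of dorsal mesoderm-like nuclei. Other classes differed. For ventx1.1 with ventx1.2 the ratio was 1.16 in ventral mesoderm-like nuclei, the lowest class, and 2.59 in dorsal mesoderm-like nuclei, the highest, from 17 nuclei with both. The ratio has a lower ceiling where the single shares are high. These shares were 37.8% and 57.0% in the ventral class and 6.97% and 13.1% in the dorsal class. The ratio therefore does not rank the classes by how far the 2 genes go together. In the dorsal class ventx1.2 with ventx2.1 was at 0.64, from 4 nuclei.

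With organizer transcripts the overlap over all nuclei was less than the product of the shares. Any ventx gene and chrd.1 were found together in 575 nuclei, 7.48% against a product of 9.53%, a ratio of 0.78. The ratio was 0.60 with gsc, 0.51 with shh and 0.63 with otx2, and 0.92 with the notochord gene not and 0.87 with lhx1. With wnt8a it was 1.65 and with tbxt, the pan-mesodermal brachyury gene, 1.23. Inside the resolution 1 cluster led by LOC105948415 the ratio with chrd.1 was 0.60, from 122 of 710 nuclei. Within the 9 classes of resolution 2 it was under 1 in 7, at 0.84 in ventral and 0.76 in dorsal mesoderm-like nuclei. In dorsal endoderm-like, dscaml1 and tp73, inner neural and outer ectoderm-like nuclei the interval of the joint share included the product, so a shortfall is not resolved there. In dorsal mesoderm-like nuclei the joint share was 12.0% (9.71 to 14.6) against a product of 15.8%. The ratio with chrd.1 was above 1 in inner non-neural ectoderm-like nuclei (1.09, also not resolved, with 1.23 for not and 1.26 for lhx1) and in the unnamed clusters (1.63, with 1.92 for gsc and 1.82 for lhx1). The unnamed class pooled unlike clusters. That led by myof.1 had a median of 14263 UMIs, a median doublet score of 0.12, 816 CPM of chrd.1 and 413 ventx CPM. Those led by scnn1b and kcnip1 had 32.8 and 65.2 CPM of chrd.1 and 90.8 and 82.2 ventx CPM. Pooling clusters high in both with clusters low in both can raise the ratio. Co-expression within 1 kind of nucleus was therefore not tested there. Pooling nuclei high in 1 gene with nuclei high in the other can lower the ratio. The dorsal mesoderm-like class pooled the clusters led by lhx6 (225 ventx and 472 chrd.1 CPM) and shh (143 and 5851). The cluster led by LOC105948415 held both wnt8a and chrd.1 nuclei. Exclusion within 1 kind of nucleus was therefore not tested either.

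**Figure D5:**
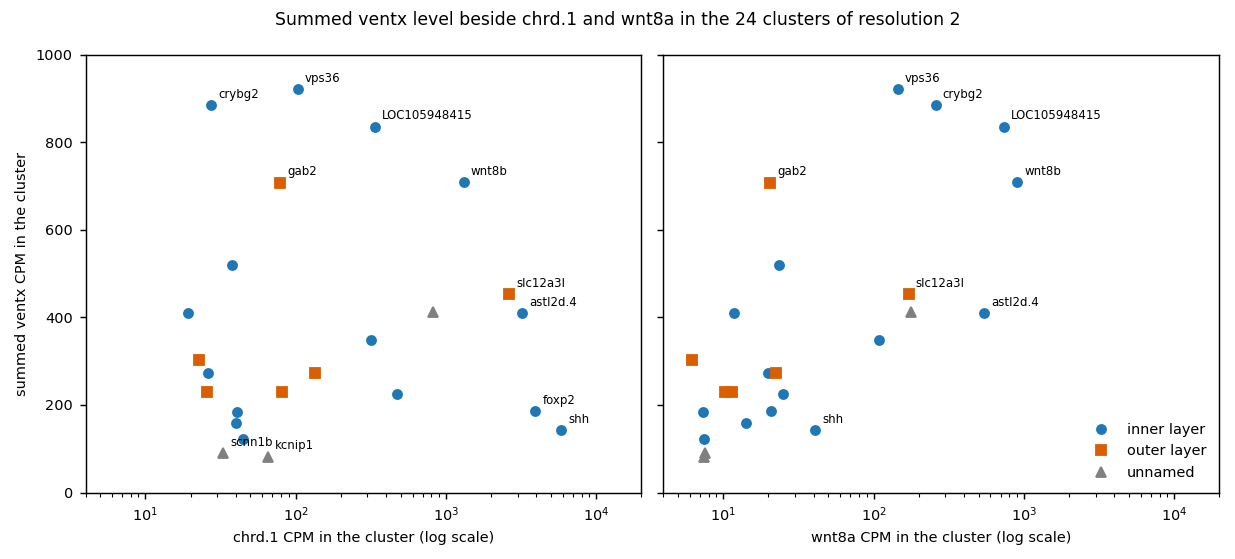
Summed ventx CPM (y axis, linear) against chrd.1 CPM (left) and wnt8a CPM (right; both log scale) in the 24 clusters of resolution 2, with circles for inner-layer, squares for outer-layer and triangles for unnamed clusters. The clusters highest in chrd.1, led by shh and foxp2, have 143 and 186 ventx CPM. Those next in chrd.1, led by astl2d.4, slc12a3l and wnt8b, have 409, 454 and 709. Those highest in wnt8a, led by wnt8b and LOC105948415, have 709 and 835.

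Genes of the BMP pathway were compared from lists. Of the ligands, 2 of 4 with enough UMIs were 2-fold or more higher in ventral than in dorsal mesoderm-like nuclei at resolution 2, bmp7.1 (log2 ratio 1.15) and bmp4 (1.12), and admp, the BMP ligand of the organizer, was lower (-3.46), where 2.65% of all genes compared were higher and 2.48% lower. At resolution 1 the ligand count was 1 of 4 higher and 0 lower, with bmp4 at 0.32 and admp at 0.09. Of 9 receptors and Smads 1 was past 2-fold at each resolution, but not the same gene: smad9 (2.27) at resolution 2 and bmpr2 (1.34, against 0.73 at resolution 2) at resolution 1, where smad9 had too few UMIs. Of 8 inhibitors and modulators 5 were higher, including szl (4.18, sizzled, an inhibitor of the proteases that cleave chordin), bambi (2.91, a pseudoreceptor), bmper (2.90) and the inhibitory Smad gene smad7 (2.06), and 2 were lower, led by chrd.1 (-3.75). At resolution 1, where 4.33% of all genes were higher and 1.29% lower, 5 of 8 were higher and 0 lower, and chrd.1 was at 2.14, the opposite direction.

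Of 10 BMP target genes 8 were higher and none lower, with a median log2 ratio of 1.87 beside 0.03 over all 7293 genes, the highest being evx1 (3.12), cdx1 (2.88) and gata3 (2.51). Of 11 organizer genes 10 were lower, with a median of -2.37. evx1 and cdx4 on the first list and gsc, not, shh and frzb on the second also named the classes, so their direction is not independent of the classes. chrd.1, on the inhibitor and organizer lists, was also the gene by which resolutions 1 and 2 were judged. Its direction at resolution 2 is therefore not independent of that choice. At resolution 1 the counts were 5 of 10 targets higher and, for organizer genes, 5 of 11 higher and 1 lower, the opposite direction. Of 9 genes for Pou5f3 and related pluripotency factors, which maintain uncommitted cells of the early embryo, 1 was higher and 0 lower at resolution 2, with a median of 0.09.

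Over the 24 clusters the summed ventx level correlated with evx1 (Pearson's r = 0.85), msx1 (0.81), smad7 (0.80), szl (0.76) and wnt8a (0.71), and less with bmp4 (0.40) and chrd.1 (0.10). Among the 41 BMP list genes with at least 50 UMIs, 14 had r of 0.5 or more, as did 1.46% of the 11271 genes of that depth. The clusters share libraries, pool and clustering, and low genes such as msx1, at most 17.3 CPM, are near the limit of counting.

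The genes most alike in pattern were sought over the 14 clusters of resolution 1 among 5929 genes with at least 500 UMIs. The nearest gene to ventx1.1 was ventx1.2 (r = 0.95), followed by ventx2.1 (0.88) and ventx3.2 (0.84). For ventx1.2 it was ventx1.1, then ventx3.2 (0.90), ventx2.1 (0.88), uap1 (0.83) and ventx2.2 (0.83). ventx2.1 was closest to ventx1.1 and ventx1.2 (0.88 each), then ventx2.2 (0.86), amotl1 (0.85), ventx3.2 (0.84) and bmp7.1 (0.84). ventx1.1, ventx1.2 and ventx2.1 thus had the other members with at least 500 UMIs among their 10 nearest genes.

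ventx2.2 followed ventx2.1 (0.86) as closely as tspoap1 (0.86), lpar2 (0.85) and has2 (0.85), and neither ventx1.1 nor ventx1.2 was among its 10 nearest. ventx3.2 was closest to LOC100498497 (0.94), tdrp (0.91) and greb1 (0.91), with ventx1.2 at 0.90 the only family member among its 10 nearest. At resolution 2 the other ventx genes with at least 500 UMIs filled the first 4 places for ventx1.1, ventx1.2, ventx2.1 and ventx2.2. For ventx3.2 they held places 1, 2, 4 and 5 there, as ventx1.2 (0.91), ventx2.2 (0.91), ventx2.1 (0.88) and ventx1.1 (0.88). The distance of ventx3.2 from the family at resolution 1 was thus not kept. The ranking of ventx3.1, headed by fbln1 (0.91), rests on 71 UMIs.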

How the data were processed

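Nuclei of wild-type Xenopus tropicalis embryos at stage 10.5 were profiled from polyA RNA in 1 pool, read as 2 sublibraries. The deposited counts are whole UMI counts per gene and barcode that the authors made with the Parse Biosciences software at default settings on UCB_Xtro_10.0. The barcode table the authors deposited holds UMI and gene counts per barcode, and the barcode suffix gives the sublibrary. The treatment of reads that match several ventx copies is not stated in the methods or labels. The submitters' processing notes name Seurat and Scanpy 1.9.6.

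The members and lists were chosen with earlier results of these data known. Of 215209 barcodes, 8474 had at least 1500 genes, fewer than the study states for that minimum, and 784 with a doublet score above 0.15 (Scrublet) were removed. The automatic doublet threshold marked 0 nuclei. The sublibraries had 206 combinations of wells in common among the nuclei. Median depth was 4503.5 and 4517.5 UMIs. Counts were scaled to 10000 per nucleus and clustered in Python 3.11.15 with scanpy 1.11.5 and leidenalg 0.10.2, from 2000 variable genes without 56 ventx and BMP genes, 30 principal components and 15 neighbours, at Leiden resolution 1 or 2. A cluster was named when at least 3 of its class's markers were raised and its median doublet score was at most 0.1. The cluster led by myof.1, with 6 of 6 markers raised and a median score of 0.12, stayed unnamed. Clusters of the unidentified state marked by dscaml1 and tp73 were named for that state instead. ventx genes and chrd served the study as markers and were left out of the naming.

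CPM is the summed UMIs of a gene per 1000000 UMIs of the class. Intervals are exact Poisson or Clopper-Pearson at 95%, computed with scipy 1.17.1, and cover counting error only. Log2 ratios have 1 CPM added. Genes were compared from 50 UMIs in both classes together, and called at 2-fold. Likeness is Pearson's r of log2(CPM + 1) over clusters, among genes with at least 500 UMIs, with the 10 most alike per member. Text names all ventx genes, these alike genes, and list genes with at least 50 UMIs. With 1 pool no test was possible. The steps were tested on simulated data. Alternatives varied the gene minimum, doublet removal, resolution, variable genes, seed, scaling, gating and depth of thinning.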

Additional observations from a re-analysis of the deposited data

Results flagged for a closer look

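The barcodes with fewer than 1500 genes, which were left out of the main clusters and classes, also held ventx transcripts. The 206735 barcodes of this kind gave 15407 ventx UMIs, or 418.4 CPM, where the nuclei kept gave 377.5 CPM, and each of the 6 genes was higher in them, such as ventx3.2 at 31.1 against 24.2 CPM and ventx1.1 at 102 against 91.7. In the 163980 barcodes with at most 100 genes the family stood at 370.4 CPM. The first pair gave 65.3% and the second pair 26.7% of ventx UMIs in barcodes under the minimum, close to the 67.4% and 25.7% of the nuclei kept. Whether these transcripts came from small nuclei or from free RNA was not tested.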

How the results depend on the processing

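The log2 ratio of summed ventx CPM between ventral and dorsal mesoderm-like nuclei was 1.07 at resolution 1. It was 2.16 with at least 1000 genes per nucleus, 1.79 with doublets kept, 2.15 at resolution 2, 2.11 with 1000 variable genes, 0.96 with ventx and BMP genes in the clustering, 1.97 with marker-gated classes and, in a split chosen after seeing the data, 2.50 between nuclei of 1 cluster with wnt8a or chrd.1. The 10 alternatives kept the sign for each of the 6 genes. With at least 2000 genes, resolution 0.5, 4000 variable genes or another seed no cluster was named dorsal mesoderm-like, so no value was had. Outer over inner ectoderm (0.02) was -0.10 with at least 1000 genes, 0.16 with 2000, 0.21 at resolution 2, -0.11 with ventx and BMP genes in the clustering, 0.18 with median-of-ratios size factors and 0.36 with gating, so its sign is not settled. Non-neural over neural (1.68) was 1.51 with 1000 genes, 1.93 with 2000, 1.43 with doublets kept, 1.38 at resolution 2, 1.43 with 1000 and 1.42 with 4000 variable genes, 1.74 with ventx and BMP genes in the clustering and 1.24 with gating. At resolution 0.5 it reversed to -0.41, with -0.40 for ventx1.1, -0.36 for ventx1.2, -0.37 for ventx2.1, -0.56 for ventx2.2 and -0.49 for ventx3.2; the cause was not tested.

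The ventx level in ventral mesoderm-like nuclei (679 CPM) and the share of those nuclei with a ventx UMI (68.7%) moved together. They were 908 CPM and 80.1% with at least 1000 genes, 499 and 58.7% with 2000, 533 and 55.6% at resolution 0.5, 872 and 81.2% at resolution 2, 832 and 79.3% with 1000 variable genes, 712 and 71.7% with ventx and BMP genes in the clustering, 585 and 59.1% with another seed, and 756 and 75.8% with gating. The share was 71.4% with doublets kept, 67.9% with 4000 variable genes, 56.2% at 1500 UMIs and 81.2% without thinning. Co-detection of ventx1.1 with ventx1.2 (1.80) was 1.78 with doublets kept and 1.91 at 1500 UMIs, and that of ventx genes with chrd.1 (0.78) was 0.83 with doublets kept. Of the 50 places among the most alike genes, 23 were shared at resolution 2 and 27 with Spearman's rho. Genes past the fold between ventral and dorsal mesoderm (415) were 719 from 10 UMIs and 93 at 4-fold, and at 4-fold they were 552 for outer over inner (1580 at 2-fold) and 66 for non-neural over neural (349).

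Leaving out either sublibrary gave 1.02 to 1.12 for the mesoderm ratio, -0.03 to 0.07 for outer over inner, 1.64 to 1.71 for non-neural over neural, 670 to 689 CPM, 68.5% to 69.0% of nuclei, 1.79 to 1.80 and 0.76 to 0.81 for the co-detection ratios, 30 to 34 shared places, and 350 to 380, 1394 to 1414 and 288 to 343 genes past the fold. No paired analysis was possible because the labels give 1 group only. The main limits are the single pool, the classes rebuilt from markers, ventx3.1 at 71 UMIs, and paired genes that could share reads and whose sequences were not compared.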
